A study of Homo sapiens with 18 samples.

Results

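The cholesterol and fatty acid synthesis genes described here are 32 rows of a raw count table, chosen by gene symbol, of 28395 genes in all. They comprise 5 regulators of sterol-responsive transcription, 7 genes of the mevalonate and isoprenoid steps, 11 of the steps from squalene to cholesterol, 8 of fatty acid synthesis and desaturation, and the sterol transfer protein gene STARD4. All 32 passed the filter on low counts that left 14571 genes to test.

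The 18 RNA sequencing libraries, 2 for each of 9 groups, came from H929, MM1S and OPM2, established lines of human multiple myeloma, a cancer of plasma cells. In each line IKZF1 was knocked out with inducible CRISPR-Cas9 and compared with an empty vector, and in OPM2 IKZF3 was too. All knockout and empty vector cells received doxycycline at 1 µg/mL, which induces the guide RNA, for 72 h. OPM2 cells without doxycycline were treated with lenalidomide at 10 µM for 72 h or left untreated. IKZF1 (Ikaros) and IKZF3 (Aiolos) are lymphoid transcription factors that lenalidomide directs to degradation. Live cells were sorted on light scatter, with no sort for edited cells in the labels, so a knockout library can hold cells that kept the protein. Lenalidomide was set against untreated cells with no label of a vehicle, and the empty vector and untreated OPM2 groups differ in vector and doxycycline at once. The 2 libraries of a group are called replicates or, for knockouts, libraries a and b. The 2 OPM2 IKZF1 knockout columns carry different letter codes, while those of each other knockout group share one, and no source used here says what the codes mean. No label says whether the libraries of a group came from separate cultures or clones, so p-values measure only the spread between these samples, which may be technical. In such bulk samples, fewer cells with a transcript and less of it per cell cannot be told apart.

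Cells make cholesterol from acetyl-CoA through mevalonate, isoprenoid units, squalene and lanosterol, and draw on the same acetyl-CoA for fatty acids. SREBP transcription factors, encoded by SREBF1 and SREBF2, drive both pathways: SCAP carries them to the Golgi for cleavage when sterol is scarce, and the INSIG proteins hold them in the endoplasmic reticulum when it is plentiful. Plasma cells, from which myeloma arises, keep an expanded endoplasmic reticulum, whose membranes need both kinds of lipid.

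Depth was 11.8 to 24.19 M counts per library, and the 32 genes took 0.441% to 1.051% of them. Plasma cell markers summed to 7837 to 23880 CPM (counts scaled to a common effective library size) in all libraries, and T and NK cell markers to 0 to 44.85 CPM. The knockouts had no less transcript of the gene they target: IKZF1 gave a log2 fold change of 0.33 in H929, 0.83 in MM1S and 0.63 in OPM2, and IKZF3 0.52 in its knockout. CD38, a surface antigen of plasma cells, was higher in all 5 knockout or lenalidomide comparisons (1.01 to 1.90). The IKZF1 and IKZF3 levels do not check the labels, since a frameshift need not remove a transcript. OPM2 empty vector replicate 1 stood apart from replicate 2, with 1013 genes more than 2-fold apart, against 16 to 422 in the other groups. The OPM2 knockout calls of single members are given with and without it.

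The promoters of 4 of the genes called in the largest number of comparisons are shown because the members' known regulators act at such windows. RefSeq (GRCh38.p14) held a window of 250 bases before to 50 after the gene start for 28 of the 32 members. NF-Y boxes, CCAAT on either strand (ATTGG on the strand shown), are in capitals. DHCR7 lies at chr11:71448344-71448643 on the minus strand, FADS1 at chr11:61816954-61817253 on the minus strand, HSD17B7 at chr1:162790452-162790751 on the plus strand and SC5D at chr11:121292521-121292820 on the plus strand. The DHCR7 window lies inside the annotated span of that gene, chr11:71427287-71449043, so it is set on a start other than the outermost one.
DHCR7: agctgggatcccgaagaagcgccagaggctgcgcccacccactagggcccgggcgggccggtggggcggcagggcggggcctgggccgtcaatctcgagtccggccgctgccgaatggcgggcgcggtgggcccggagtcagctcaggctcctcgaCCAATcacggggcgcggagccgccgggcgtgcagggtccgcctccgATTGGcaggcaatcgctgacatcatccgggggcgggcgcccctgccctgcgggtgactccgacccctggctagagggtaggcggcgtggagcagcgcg
FADS1: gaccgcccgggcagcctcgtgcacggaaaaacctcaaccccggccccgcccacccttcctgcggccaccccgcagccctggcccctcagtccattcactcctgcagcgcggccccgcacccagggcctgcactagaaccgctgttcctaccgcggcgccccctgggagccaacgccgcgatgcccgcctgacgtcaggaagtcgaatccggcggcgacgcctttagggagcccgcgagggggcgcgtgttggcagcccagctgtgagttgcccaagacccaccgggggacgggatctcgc
HSD17B7: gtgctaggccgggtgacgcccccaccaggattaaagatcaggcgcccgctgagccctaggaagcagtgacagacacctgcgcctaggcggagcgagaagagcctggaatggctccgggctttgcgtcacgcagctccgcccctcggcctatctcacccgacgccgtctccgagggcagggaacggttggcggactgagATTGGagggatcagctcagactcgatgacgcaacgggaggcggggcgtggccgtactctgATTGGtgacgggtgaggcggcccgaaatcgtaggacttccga
SC5D: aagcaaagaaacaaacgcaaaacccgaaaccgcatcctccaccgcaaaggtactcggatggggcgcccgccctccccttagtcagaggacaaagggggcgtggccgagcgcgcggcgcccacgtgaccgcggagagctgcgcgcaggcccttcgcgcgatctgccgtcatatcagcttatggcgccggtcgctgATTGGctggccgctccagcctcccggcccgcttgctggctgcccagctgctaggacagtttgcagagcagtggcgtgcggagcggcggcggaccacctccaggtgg
DHCR7 and HSD17B7 had 2 such boxes each, SC5D had 1 and FADS1 had none. Of the 28 member promoters, 64.3% held CCAAT, against 35.7% of all 27305 promoters of that length. The sterol response element TCACNCCAC was found in 1 member, SREBF2, against 1.15% of all promoters, and the SREBP E-box TCACGTGA in 1, INSIG1, against 1.04%. The Ikaros core TGGGAA stood in 10.7% of member promoters (ACSS2, FDPS and MVK) and 24.3% of all. Both strands were read and matches could overlap. A match of letters is not a bound site, and a window without one says nothing of the factor.

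A gene counted as called, and as having risen or fallen, where edgeR's quasi-likelihood test over the 18 libraries gave an adjusted p (Benjamini-Hochberg, over all genes tested) below 0.05. Among the 32 members, IKZF1 knockout in H929 lowered 9 and raised 1, or 31.2%, while 10.5% of all genes were called, 4.6% lower and 5.92% higher. In MM1S, 4 fell and 2 rose, or 18.8% of members against 28.2% of all genes, 12.6% lower and 15.6% higher. In OPM2, 8 fell and 3 rose after IKZF1 knockout, or 34.4% against 36.3% of all genes (20% lower and 16.2% higher). After IKZF3 knockout 8 fell and 1 rose, or 28.1% against 36.8% of all genes (20.6% lower and 16.2% higher). Lenalidomide lowered 2 and raised 1, or 9.38% against 10.3% of all genes (4.58% lower and 5.76% higher). The member share was thus above that of all genes in H929 and close to or below it in the other 4 comparisons.

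The median log2 fold change of the members was -0.34 in H929, against -0.03 for all genes tested. It was -0.10 against 0.00 in MM1S, -0.01 against 0.00 in OPM2 IKZF1 knockout, -0.15 against -0.03 in OPM2 IKZF3 knockout and -0.19 against 0.00 under lenalidomide. Without OPM2 empty vector replicate 1 the OPM2 medians were -0.01 against 0.00 for IKZF1 knockout and -0.10 against 0.00 for IKZF3 knockout. Both H929 knockout libraries lay below both controls in 24 members, as in 33.2% of all genes, and above them in 3, as in 27.1% of all genes. In MM1S these counts were 15 below (35.6% of all genes) and 10 above (37.3%). They were 9 below (31.7%) and 6 above (27.8%) in OPM2 IKZF1 knockout, and 9 below (33% of all genes) and 2 above (27.4%) in IKZF3 knockout. Under lenalidomide they were 18 below (32.5%) and 7 above (32.9%), so H929 and lenalidomide had most members below their controls. No member was called in all 5 comparisons: DHCR7, ACAT2, HSD17B7, SC5D and FADS1 were called in 3 each, 9 members in 2, 6 in 1 and 12 in none.

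**Figure D1:**
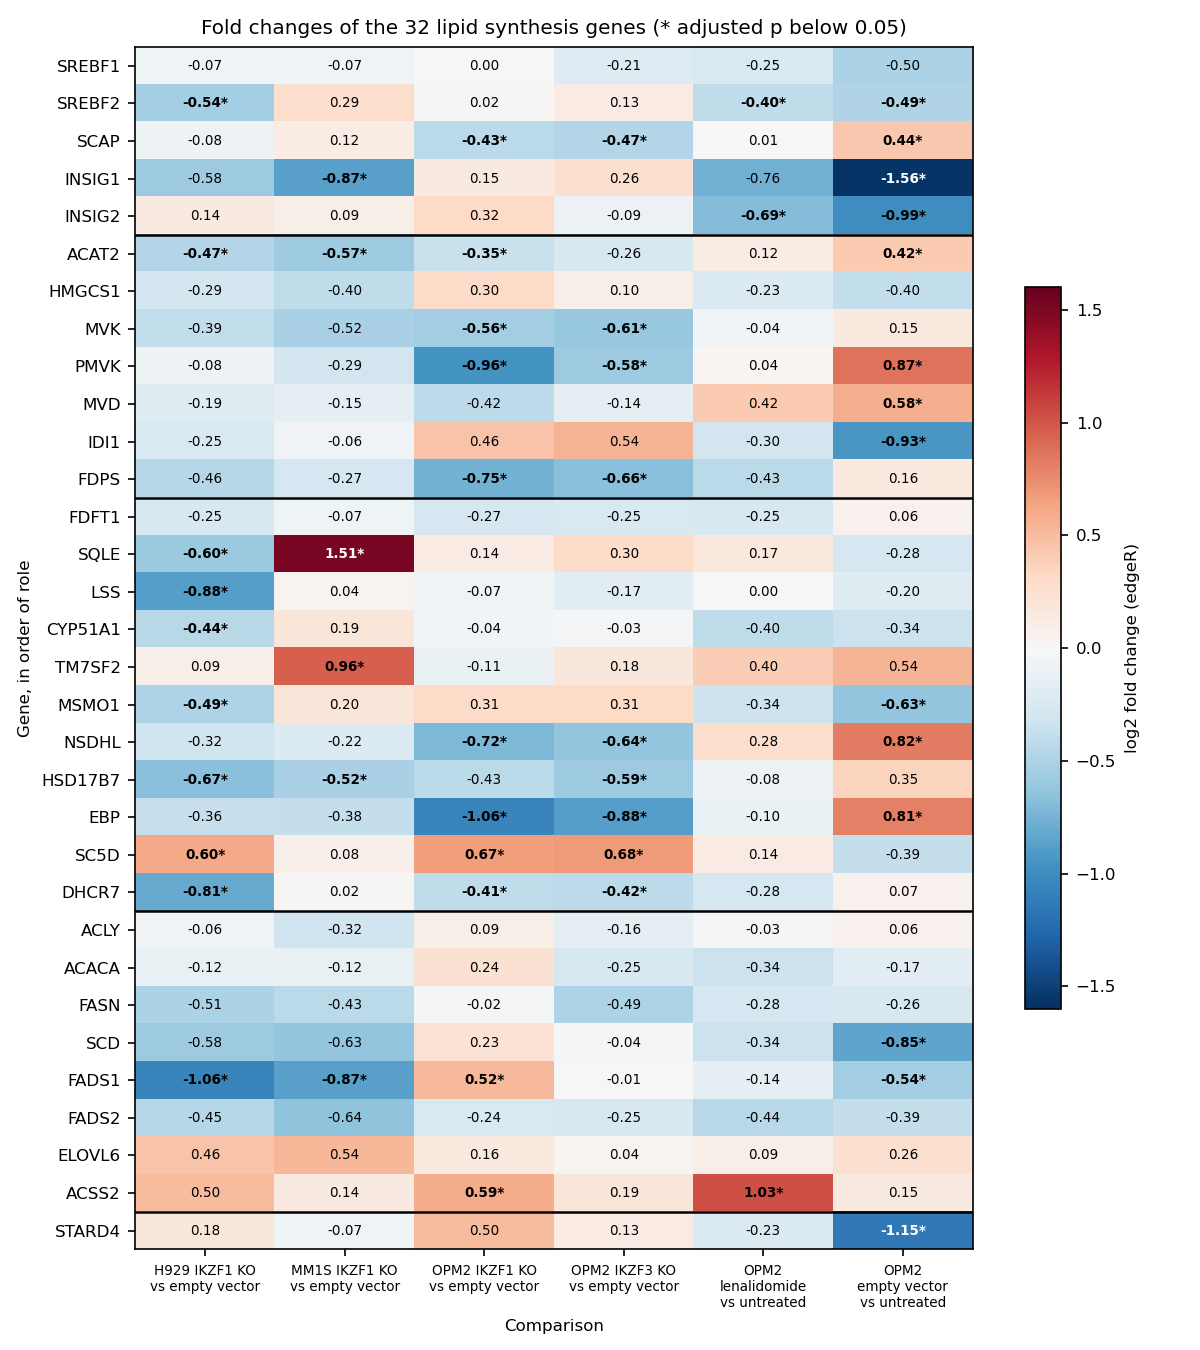
Log2 fold changes of the 32 genes (rows, by role, black lines between roles) in 5 comparisons and between the OPM2 control groups (columns), with called values starred. Blue is lower and red higher in the first-named group; SC5D is red in all 3 starred knockout cells, and FADS1 is blue in H929 and MM1S but red in OPM2 IKZF1 knockout.

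Single libraries moved these counts, and with them the share of all genes called, given in parentheses. In H929 the 10 calls became 3 when empty vector replicate 1 was left out (4.59%), 2 for its replicate 2 (4.57%), 4 for knockout library a (5.54%) and 6 for untreated OPM2 replicate 1 (8.77%). Leaving out either OPM2 empty vector library gave 16 (22.2%). FADS1 and DHCR7 held in all 18 such fits, CYP51A1 and MSMO1 in 4 each and SC5D in 5. In MM1S the 6 calls became 3 when empty vector replicate 1 was left out (15.5%), and 13 for OPM2 empty vector replicate 1 (42.3%) or 2 (42.2%). ACAT2, SQLE and FADS1 held in all 18.

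The 11 calls of OPM2 IKZF1 knockout became 6 when empty vector replicate 1 was left out (21.2%), 22 for replicate 2 (53.4%), 7 for knockout library a (20.5%) and 6 for library b (22.4%). PMVK, NSDHL, EBP, SC5D and ACSS2 held in all 18 fits, and DHCR7 in 5. The 9 calls of IKZF3 knockout became 6 when empty vector replicate 1 was left out (23.3%), 16 for replicate 2 (53.6%), 2 for knockout library a (17%) and 5 for library b (24.7%). EBP alone held in all 18, DHCR7 held in 7 and PMVK in 1. When the 4 compared libraries were fitted alone, none of these OPM2 calls remained: 0 members were called in either knockout, and 0.929% and 0.419% of all genes after IKZF1 and IKZF3 knockout. Under lenalidomide the 3 calls became 1, ACSS2, when any of the 4 compared libraries was left out (3.87% to 4.24%), 9 for OPM2 empty vector replicate 1 (21.9%) and 10 for replicate 2 (21.8%). ACSS2 held in all 18 fits there, and SREBF2 in 6.

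Of the 5 regulators of SREBP, 1 was called in each of the 4 knockout comparisons. SREBF2, the factor tied most closely to cholesterol genes, fell in H929 to 231.3 and 290.2 CPM in knockout libraries against 378.8 and 380.8 CPM in empty vector (log2 fold change -0.54 ± 0.12 SE, adjusted p = 0.00894 by edgeR). Both knockout libraries lay below both controls. It fell under lenalidomide too, to 561.8 and 568.8 CPM against 766.6 and 729.8 CPM in untreated OPM2 (-0.40 ± 0.12, adjusted p = 0.0456 by edgeR), without overlap. In MM1S it stood at 589.5 and 702.8 CPM in knockout and 524.3 and 534.6 CPM in empty vector, a change that was not called (0.29 ± 0.12). SREBF1, whose main product drives fatty acid genes, was called in none of the 5 comparisons, with log2 fold changes of -0.25 to 0.00.

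SCAP, the SREBP escort, stood at 114.3 and 112.3 CPM in OPM2 IKZF1 knockout and 111.6 and 109.8 CPM in IKZF3 knockout, against 178.5 and 128.2 CPM in empty vector. It fell in both (-0.435 ± 0.13, adjusted p = 0.0196, and -0.47 ± 0.13, adjusted p = 0.0132 by edgeR), and the highest value was that of empty vector replicate 1. Without that library neither change was called (-0.15 and -0.18). INSIG1, which retains SCAP and is itself a target of SREBP, fell in MM1S to 572.6 and 940 CPM in knockout against 1368 and 1394 CPM in empty vector (-0.87 ± 0.24, adjusted p = 0.0141 by edgeR). Both lay below empty vector but apart from each other. In MM1S knockout, library a was the lower in 28 of the 32 members, with SCD at 607.7 CPM in library a and 1408 CPM in library b. In H929, library a of the knockout was the lower in 24 members and replicate 1 of empty vector in 23. The share of all genes is not given for these counts. Without library a of MM1S knockout, INSIG1 was at -0.56 and not called. The INSIG1 call was also lost without either MM1S empty vector library (-0.88 and -0.87) and when the 4 libraries were fitted alone (-0.88). INSIG2, a second retention protein, fell under lenalidomide to 28.99 and 28.87 CPM against 47.53 and 46.02 CPM in untreated cells (-0.69 ± 0.16, adjusted p = 0.0129 by edgeR), with no overlap.

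In the mevalonate and isoprenoid steps, ACAT2, which condenses acetyl-CoA in the cytosol, was the only member that fell in all 3 lines after IKZF1 knockout. It stood at 11 and 12.96 CPM in H929 knockout against 16.31 and 16.92 CPM in empty vector (-0.47 ± 0.13, adjusted p = 0.0313 by edgeR). In MM1S it stood at 33.55 and 33.53 CPM against 52.06 and 47.62 CPM (-0.57 ± 0.12, adjusted p = 0.00261), and in OPM2 at 42.12 and 44.95 CPM against 59.44 and 51.99 CPM (-0.35 ± 0.12, adjusted p = 0.031). Knockout lay below empty vector in each pair of groups, and of these calls only that in MM1S held in all 18 fits that left out 1 library. The OPM2 value was -0.22 and not called without empty vector replicate 1. In the annotation 52.3% of ACAT2 exon bases overlap genes on the opposite strand (SOD2, SOD2-OT1 and TCP1), and no source used here states whether counting used strand.

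The other calls of these steps were in OPM2. PMVK, which phosphorylates mevalonate phosphate, stood at 309.5 and 283.3 CPM in IKZF1 knockout and 365.3 and 407.1 CPM in IKZF3 knockout, against 764.3 and 387.3 CPM in empty vector. It fell by 0.96 ± 0.21 on the log2 scale after IKZF1 knockout (adjusted p = 0.0038) and by 0.58 ± 0.21 after IKZF3 knockout (adjusted p = 0.0423, both edgeR), where the groups overlap. Without empty vector replicate 1 these were -0.35, still called, and 0.03, not called. FDPS, the farnesyl diphosphate synthase blocked by bisphosphonates, stood at 251.2 and 267.2 CPM in IKZF1 knockout and 282 and 270.1 CPM in IKZF3 knockout, against 539 and 335.9 CPM in empty vector. It fell in both (-0.75 ± 0.18 and -0.66 ± 0.18, adjusted p = 0.00604 and 0.0112 by edgeR), without overlap but with neither call kept without empty vector replicate 1 (-0.34 and -0.25). Mevalonate kinase, MVK, fell likewise to 24.02 and 28.24 CPM in IKZF1 knockout and 26.06 and 24.36 CPM in IKZF3 knockout, against 47.39 and 29.94 CPM (-0.56 ± 0.19 and -0.61 ± 0.19, adjusted p = 0.0308 and 0.0195 by edgeR). These too were lost without replicate 1 (-0.16 and -0.22). HMGCS1, MVD and IDI1 were called in none of the 5 comparisons.

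The steps from squalene to cholesterol held the most calls in H929, 7 of 11 members, and moved differently in the other lines. Of the 7, 6 fell and 1 rose, or 63.6% called against 10.5% of all genes. SQLE, the oxygen-dependent squalene epoxidase, rose in MM1S to 40.06 and 41.97 CPM in knockout against 15.34 and 13.32 CPM in empty vector (1.515 ± 0.17, adjusted p = 1.71e-05 by edgeR). In H929 it fell to 55 and 39.95 CPM against 69.71 and 74.13 CPM (-0.60 ± 0.16, adjusted p = 0.0287 by edgeR). Neither pair of groups overlapped. MM1S empty vector cells had the lowest SQLE of the 9 groups. In OPM2 it stood at 138 and 127.4 CPM in IKZF1 knockout against 111.2 and 130.1 CPM, not called (0.14 ± 0.16).

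LSS, which closes the squalene epoxide into lanosterol, fell in H929 to 24.58 and 30.47 CPM against 49.49 and 51.94 CPM (-0.88 ± 0.18, adjusted p = 0.00569 by edgeR). CYP51A1, the lanosterol demethylase, fell there to 98.93 and 105.5 CPM against 137.9 and 140.4 CPM (-0.44 ± 0.13, adjusted p = 0.0442 by edgeR), although 83.2% of its exon bases overlap other annotated transcripts. MSMO1, a methylsterol oxidase of a later step, fell to 40.57 and 41.88 CPM against 56.34 and 59.44 CPM (-0.49 ± 0.145, adjusted p = 0.0436 by edgeR). In each of these 3 genes the H929 groups stood clear of each other. In MM1S and both OPM2 knockouts none of the 3 was called. TM7SF2, a sterol reductase, rose in MM1S to 20.64 and 22.85 CPM against 10.99 and 11.34 CPM in empty vector (0.96 ± 0.24, adjusted p = 0.00685 by edgeR), without overlap.

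HSD17B7, a ketoreductase in the removal of sterol methyl groups, fell in 3 comparisons. It stood at 8.348 and 9.333 CPM in H929 knockout against 14.61 and 13.48 CPM (-0.67 ± 0.17, adjusted p = 0.0226) and at 15.14 and 15.48 CPM in MM1S knockout against 23.91 and 19.85 CPM (-0.52 ± 0.165, adjusted p = 0.0301, both edgeR). In OPM2 IKZF3 knockout it stood at 12.02 and 14.26 CPM against 22.48 and 17.3 CPM (-0.59 ± 0.16, adjusted p = 0.0127 by edgeR). The OPM2 call was lost without empty vector replicate 1 (-0.36) or knockout library a, and those in H929 and MM1S held in 15 of 18 fits each. All 3 pairs of groups were clear of each other, at low counts, the lowest being 107 in a library. Its pseudogene HSD17B7P2 had 7 to 44 counts, so reads shared between the copies are an uncertainty. NSDHL, the dehydrogenase of the same demethylation, stood at 40.43 and 44.31 CPM in OPM2 IKZF1 knockout and 46.14 and 43.87 CPM in IKZF3 knockout, against 85.81 and 54.36 CPM in empty vector. It fell in both (-0.72 ± 0.16 and -0.64 ± 0.16, adjusted p = 0.00405 and 0.00741 by edgeR); without empty vector replicate 1 the values were -0.33, still called, and -0.24, not called.

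EBP, a sterol isomerase, had the largest fall of the members in both OPM2 knockouts. It stood at 115 and 125.9 CPM after IKZF1 knockout and 130.7 and 141.4 CPM after IKZF3 knockout, against 325.9 and 175.4 CPM in empty vector (-1.06 ± 0.20 and -0.88 ± 0.20, adjusted p = 0.0019 and 0.00445 by edgeR). Both were called without any single library, at -0.51 and -0.33 without empty vector replicate 1. Untreated OPM2 cells had 147.7 and 138.3 CPM, nearer to the knockouts than to empty vector.

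SC5D, the desaturase of a late step, was the one member that rose in 3 of the 5 comparisons. It rose in H929 to 85.04 and 71.34 CPM in knockout against 50.74 and 52.34 CPM in empty vector (0.60 ± 0.17, adjusted p = 0.039 by edgeR). In OPM2 it rose to 55.53 and 57.55 CPM after IKZF1 knockout and 61 and 52.71 CPM after IKZF3 knockout, against 26.45 and 44 CPM (0.67 ± 0.18 and 0.68 ± 0.18, adjusted p = 0.00927 and 0.00858 by edgeR). In all 3 comparisons the knockout libraries lay above the controls, and without empty vector replicate 1 the OPM2 values were 0.39 and 0.40, both called. MM1S changed little, with 47.87 and 48.43 CPM against 45.77 and 45.38 CPM (0.08, not called). DHCR7, the reductase of a last step to cholesterol, fell in H929 to 72.01 and 84.3 CPM against 136.1 and 137.1 CPM (-0.81 ± 0.15, adjusted p = 0.00265 by edgeR). It also fell in OPM2, to 241.3 and 266.2 CPM after IKZF1 knockout and 267.3 and 236.2 CPM after IKZF3 knockout, against 374.1 and 299 CPM (-0.41 ± 0.15 and -0.42 ± 0.15, adjusted p = 0.0435 and 0.0378 by edgeR), with both lost without empty vector replicate 1 (-0.20 and -0.21). FDFT1, squalene synthase, was called in none of the 5 comparisons.

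**Figure D2:**
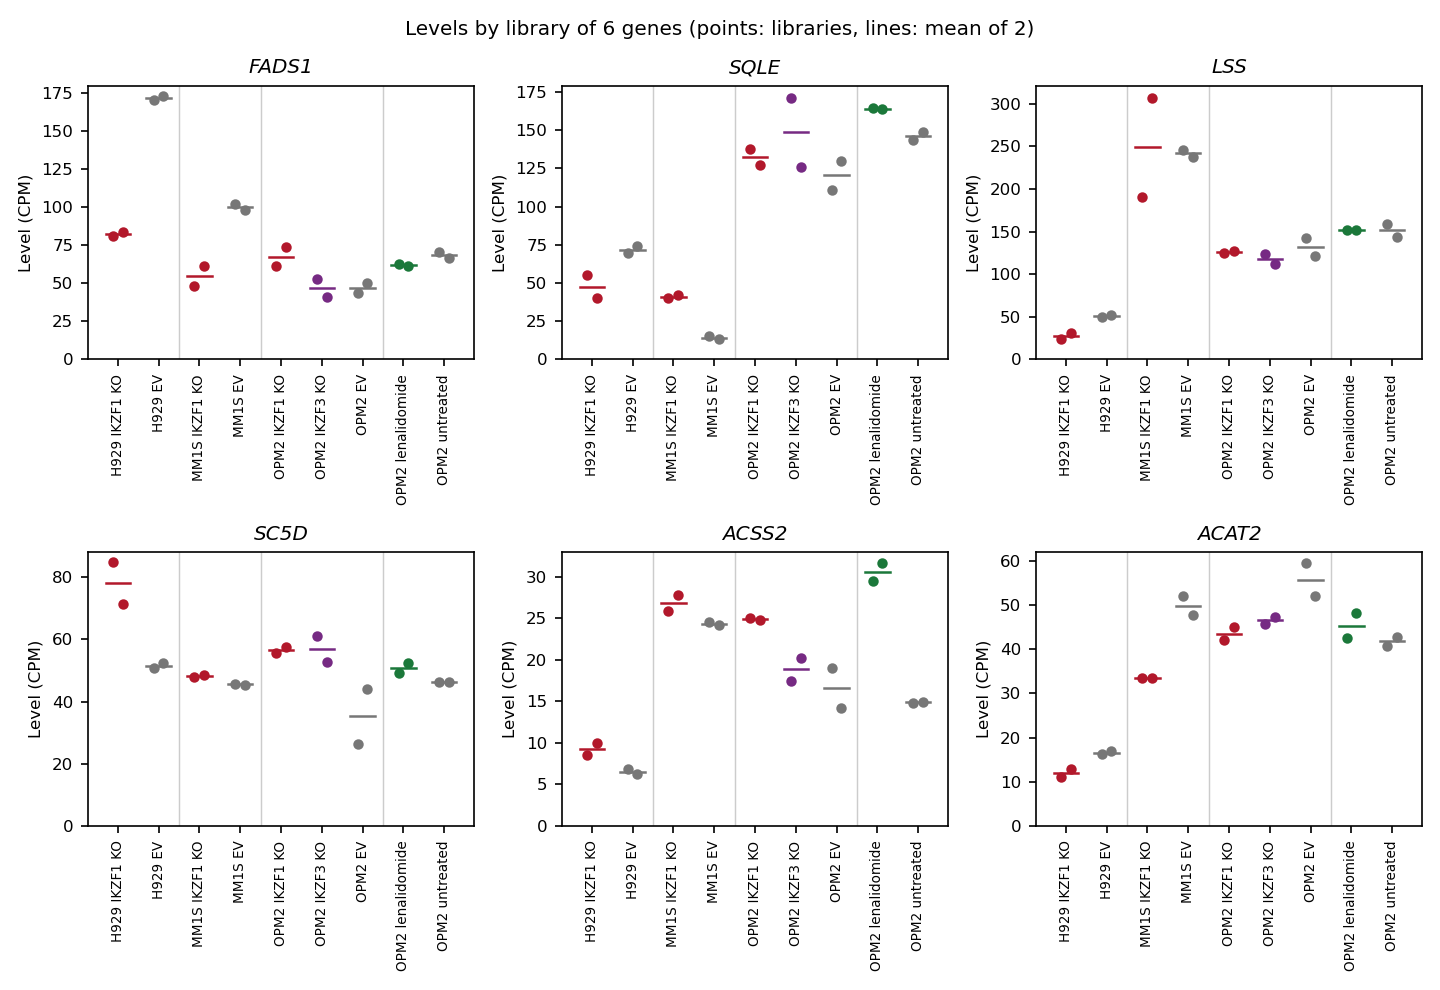
CPM of 6 genes in each of the 18 libraries (points) with the mean of each group of 2 (lines), grouped by cell line, knockout and lenalidomide groups in colour and control groups in grey. FADS1 is below its controls in H929 and MM1S knockouts, SQLE rises to 40.06 and 41.97 CPM in MM1S knockout, and ACSS2 under lenalidomide stands at 29.45 and 31.63 CPM.

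Among fatty acid genes, FADS1, a front-end desaturase of polyunsaturated fatty acids, had the largest fall of any member in H929. Against empty vector its calls were opposite between lines. It stood at 81.06 and 83.92 CPM in H929 knockout against 170.3 and 173.2 CPM in empty vector (-1.06 ± 0.15, adjusted p = 0.000206 by edgeR). In MM1S it stood at 48.08 and 61.18 CPM against 101.9 and 97.95 CPM (-0.87 ± 0.15, adjusted p = 0.000485 by edgeR), and both calls held without any single library. In OPM2 it rose to 61.46 and 73.84 CPM after IKZF1 knockout against 43.64 and 50.43 CPM (0.52 ± 0.15, adjusted p = 0.0134 by edgeR), which was 0.46 and still called without empty vector replicate 1, but not called once knockout library b was left out. Untreated OPM2 cells had 70.69 and 66.55 CPM, and with them as control the change after IKZF1 knockout was not called and its sign turned. After IKZF3 knockout it stood at 52.69 and 41.18 CPM, which overlaps empty vector. FADS1 lies at chr11:61799627-61817003 (GRCh38, minus strand), and 5.57% of its exon bases overlap other genes, mainly FADS2 on the plus strand. In none of the 5 comparisons was FADS2, which acts before it, called; FADS2 had 245.3 and 249.3 CPM in H929 empty vector and 4.562 to 9.16 CPM in the OPM2 groups.

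ACSS2, which makes acetyl-CoA from acetate, was the only member raised by lenalidomide and had its largest change there. It stood at 29.45 and 31.63 CPM under lenalidomide against 14.85 and 14.96 CPM in untreated cells (1.03 ± 0.15, adjusted p = 0.000349 by edgeR). The groups were clear of each other and the call held without any single library. It rose in OPM2 IKZF1 knockout too, to 25 and 24.77 CPM against 18.96 and 14.24 CPM in empty vector (0.59 ± 0.15, adjusted p = 0.00706 by edgeR), and that value was 0.84 without empty vector replicate 1. After IKZF3 knockout it stood at 17.5 and 20.16 CPM, not called (0.19). ACLY, ACACA, FASN, SCD and ELOVL6, which supply, carboxylate, assemble, desaturate and extend saturated chains, were called in none of the 5 comparisons. Their log2 fold changes ran from -0.63 for SCD in MM1S to 0.54 for ELOVL6 in the same line, and SCD and FASN each lay below both controls in both H929 knockout libraries. STARD4, which moves sterol between membranes, was not called either (-0.23 to 0.50).

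**Figure D3:**
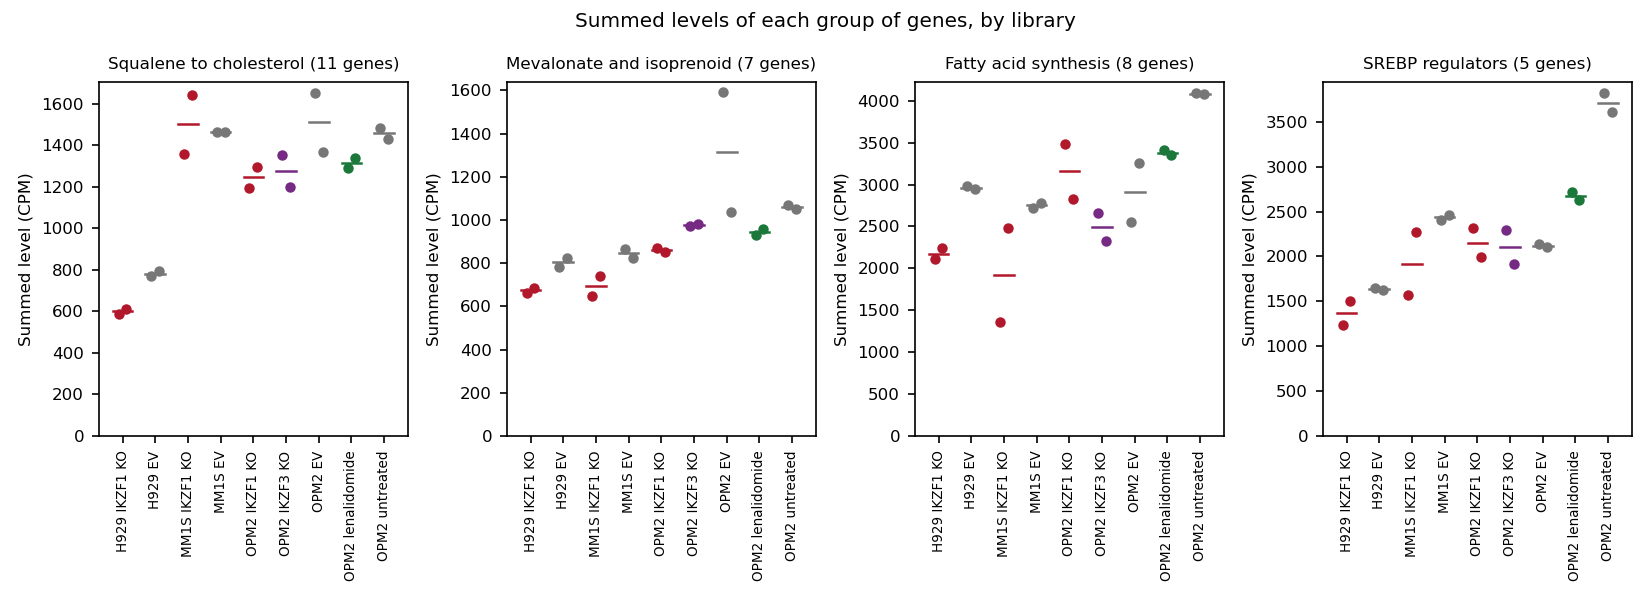
Summed CPM of the 4 larger groups of genes in each library (points) with the mean of 2 (lines). In H929 all 4 sums are lower in knockout than in empty vector; the mevalonate sum of OPM2 empty vector replicate 1, 1593.7 CPM, stands above all others.

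Averaged over the 3 lines, IKZF1 knockout lowered 13 members and raised 4, or 53.1%, against 34.1% of all genes (18.6% lower and 15.5% higher), and the member median was -0.165 against -0.02 for all genes tested. HSD17B7 (-0.54 ± 0.10, adjusted p = 0.000851), ACAT2 (-0.47 ± 0.07, adjusted p = 0.000249) and FDPS (-0.49 ± 0.11, adjusted p = 0.00257 by edgeR) were lower with an effect of the same sign in each line. EBP (adjusted p = 0.00143), NSDHL (0.00317), MVK (0.0035), PMVK (0.0114), FADS2 (0.035) and FASN (0.0412, all edgeR) were also lower with the same sign in each line. SC5D (0.45 ± 0.10, adjusted p = 0.00364), ACSS2 (0.41 ± 0.09, adjusted p = 0.00264) and ELOVL6 (0.38 ± 0.13, adjusted p = 0.0376, all edgeR) were higher with the same sign in each line. For ELOVL6 in H929, knockout library a (17.01 CPM) lay below empty vector (18.91 and 20.07 CPM) and library b (36.48 CPM) above it. SQLE also averaged higher (0.35 ± 0.10), with a negative effect in H929. Of the 17 calls, 12 held without any single library; those of INSIG1, LSS, FASN, FADS2 and ELOVL6 did not.

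The differences between lines were tested directly. SQLE differed most: the H929 effect minus the MM1S effect was -2.11 ± 0.24 (adjusted p = 3.33e-05 by edgeR) and the MM1S effect minus the OPM2 effect 1.38 ± 0.235 (adjusted p = 0.00142 by edgeR). FADS1 set OPM2 apart, at -1.58 ± 0.21 for H929 minus OPM2 (adjusted p = 0.0004) and -1.40 ± 0.21 for MM1S minus OPM2 (adjusted p = 0.000543, both edgeR). The OPM2 effect in these is against empty vector, and the FADS1 rise was not seen against untreated OPM2 cells. SREBF2 fell in H929 and had a rise that was not called in MM1S, a difference of -0.83 ± 0.17 (adjusted p = 0.00393 by edgeR). These 5 differences held in all 18 fits that left out 1 library. In all, 6 members differed between H929 and MM1S, all lower in H929, where 15.9% of all genes differed (8.91% lower and 6.94% higher). Between H929 and OPM2 5 differed, all lower in H929 (12.7% of all genes, 6.14% lower and 6.51% higher). Between MM1S and OPM2 6 differed, 3 each way (20.7% of all genes, 8.94% lower and 11.8% higher). The 6 for H929 minus MM1S became 2 or 3 when either empty vector library of either line, H929 knockout library a or MM1S knockout library b was left out (9.56% to 11.4% of all genes). The 5 for H929 minus OPM2 became 1 to 3 for 13 of the libraries (3.21% to 9.83%) and 17 for OPM2 empty vector replicate 2 (45.7%). The 6 for MM1S minus OPM2 became 2 or 3 for 9 libraries (9.12% to 16.6%) and 17 for OPM2 empty vector replicate 2 (46.9%).

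**Figure D4:**
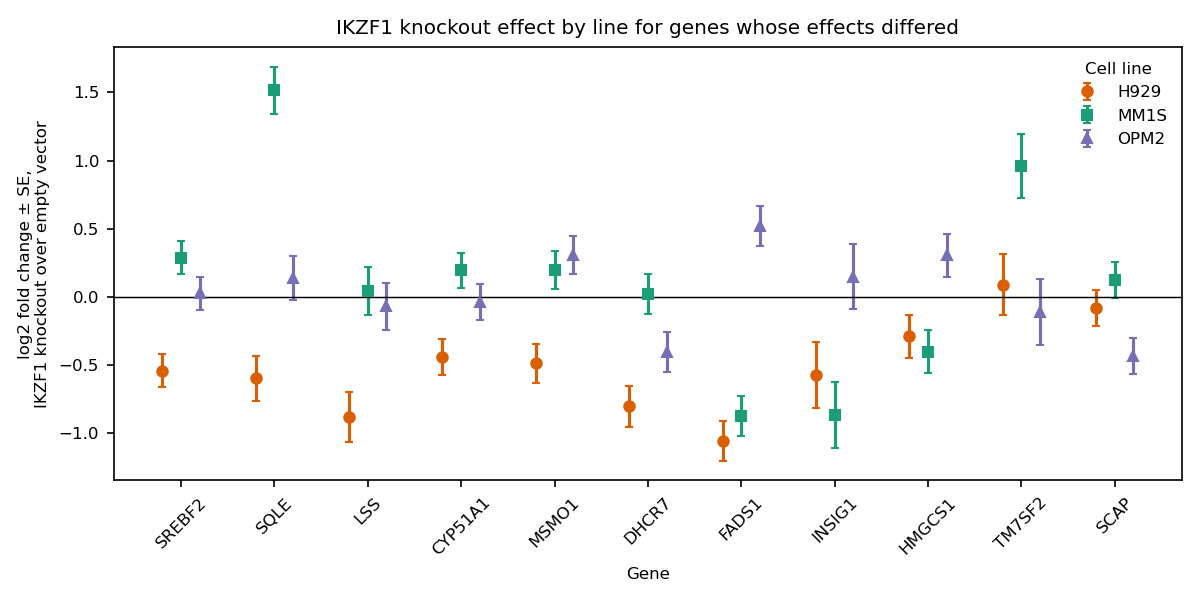
Log2 fold change (± SE) of IKZF1 knockout over empty vector in H929, MM1S and OPM2 for the 11 members whose effect differed between at least 1 pair of lines. SQLE is at 1.515 in MM1S and -0.60 in H929, and FADS1 at 0.52 in OPM2 and -1.06 in H929.

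Within OPM2, the 2 knockouts were also compared with each other, and edgeR called no member, where 2.59% of all genes were called (1.71% higher and 0.885% lower). Unadjusted p by edgeR was below 0.05 for 6 of the 32 members and 1944 of all 14571 genes. DESeq2 called 1 member, with its count over all genes in the closing section, and limma-voom 0. FADS1 came closest, at 61.46 and 73.84 CPM after IKZF1 knockout and 52.69 and 41.18 CPM after IKZF3 knockout (0.53 ± 0.15, adjusted p = 0.077 by edgeR). All 8 fatty acid genes had a positive difference, from 0.01 for FADS2 to 0.53 for FADS1. Without OPM2 empty vector replicate 1 or 2, which this comparison does not use but which enter the shared spread, 5 and 6 members were called (8.94% and 8.86% of all genes). The lenalidomide effect minus the IKZF1 knockout effect was called by edgeR for no member, where 0.281% of all genes were called (0.0686% higher and 0.213% lower). Unadjusted p by edgeR was below 0.05 for 14 of the 32 members and 4070 of all 14571 genes. DESeq2 called 8 members, with its count over all genes in the closing section, and limma-voom 0. NSDHL (1.00 ± 0.23) and INSIG2 (-1.01 ± 0.23) had the smallest adjusted p, 0.0719 by edgeR, and 2 and 22 members were called without OPM2 empty vector replicates 1 and 2 (3.62% and 44% of all genes).

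The OPM2 control groups themselves differed in these genes in the fit over all 18 libraries, but with their 4 libraries fitted alone no gene of 12434 was called. Against untreated cells, empty vector cells with doxycycline had 8 members lower and 6 higher, 43.8% against 35.3% of all genes (15.8% lower and 19.5% higher). Both libraries lay below both untreated ones in 16 members (32% of all genes) and above in 7 (31.4%). INSIG1 stood at 426 and 620.6 CPM in empty vector against 1606 and 1492 CPM in untreated cells (-1.565 ± 0.24, adjusted p = 0.00101 by edgeR), and STARD4 at 6.612 and 15.06 CPM against 22.2 and 27.12 CPM (-1.15 ± 0.26, adjusted p = 0.00432 by edgeR). INSIG2 stood at 19.69 and 27.07 CPM against 47.53 and 46.02 CPM (-0.99 ± 0.16, adjusted p = 0.00115 by edgeR). In these 3, each empty vector library lay below each untreated one. SREBF2, IDI1, MSMO1, SCD and FADS1 were lower too, by 0.49 to 0.93 on the log2 scale. The 6 higher members were PMVK (0.87), NSDHL (0.82), EBP (0.81), MVD (0.58), SCAP (0.44) and ACAT2 (0.42). Without empty vector replicate 1, 8 members were called (20.6% of all genes), and of the 6 higher ones NSDHL alone (0.43). The count was 23 without replicate 2 (52.5%), 8 without untreated replicate 1 (18.2%) and 7 without untreated replicate 2 (14.2%).

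Set against untreated cells, the OPM2 knockouts gave other calls. With untreated cells as control, IKZF1 knockout had 4 members called, with SREBF2 (-0.46), INSIG1 (-1.42) and INSIG2 (-0.68) lower and ACSS2 (0.74) higher, where 7.76% of all genes were called. IKZF3 knockout had 5 lower, INSIG1 (-1.31), INSIG2 (-1.085), STARD4 (-1.02), FASN (-0.75) and FADS1 (-0.55), where 8.27% of all genes were called. ACSS2 in IKZF1 knockout was the only OPM2 knockout call made with either control. Vector and doxycycline differ between the knockout and untreated groups, so their part cannot be told apart from that of the knockout here.

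**Figure D5:**
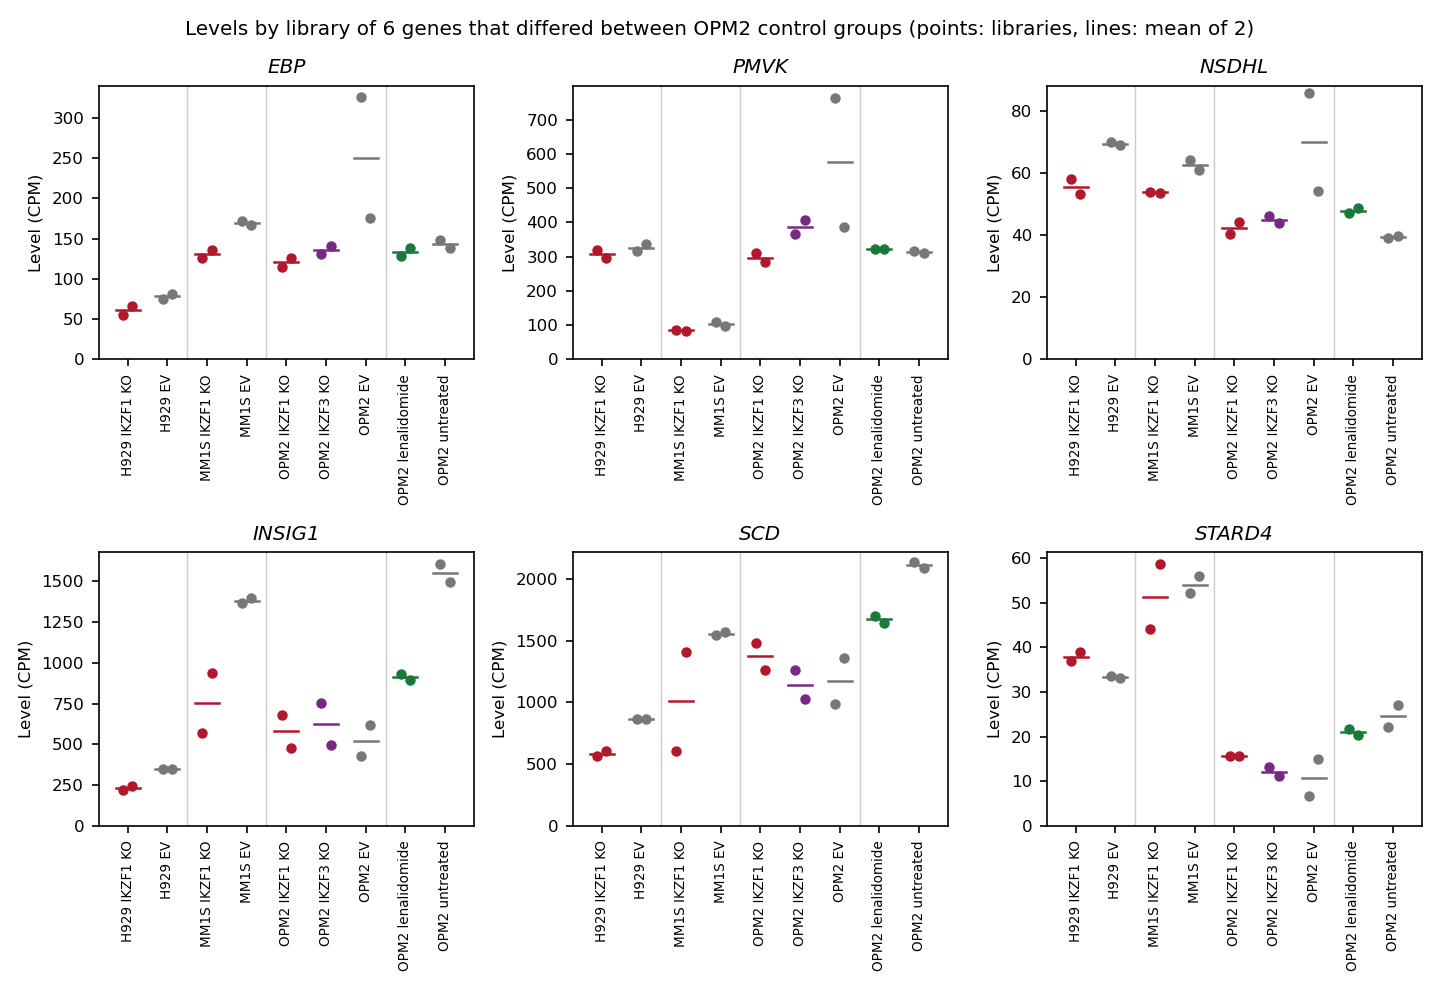
CPM of 6 genes that differed between OPM2 empty vector and untreated cells, in each library (points) with the mean of 2 (lines), by cell line. For EBP, PMVK and NSDHL the grey point of OPM2 empty vector replicate 1 is the highest of all libraries (325.9, 764.3 and 85.81 CPM); INSIG1, SCD and STARD4 are highest among OPM2 groups in untreated cells.

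When the 4 lenalidomide and untreated libraries were fitted alone, 20 members were called, 15 lower and 5 higher, where 45.4% of all genes were called. The 15 included INSIG1 (-0.76), at 931.7 and 891.5 CPM against 1606 and 1492 CPM, FDPS (-0.43), CYP51A1 (-0.40), SCD (-0.33) and FASN (-0.27). The 5 higher were ACSS2, MVD (0.41), TM7SF2 (0.37), NSDHL (0.28) and SQLE (0.17). The 32 members summed to 8372 and 8302 CPM under lenalidomide against 10490 and 10191 CPM in untreated cells.

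Per unit of transcript length, the authors' deposited table gave the levels between genes on a log2 FPKM scale with control replicates merged. In it INSIG1 was the highest member in MM1S empty vector (9.08) and in untreated OPM2 (8.96), PMVK in OPM2 empty vector (8.17) and in H929 empty vector (7.60). The merged OPM2 empty vector column includes replicate 1, where PMVK stood at 764.3 CPM against 387.3 CPM in replicate 2. Its rank without replicate 1 was not tested. SQLE read 2.15 in MM1S empty vector, 4.52 in H929 empty vector, 5.25 in OPM2 empty vector and 5.56 in untreated OPM2 in the authors' deposited table. FADS2 read 6.02 in H929 and 0.75 in MM1S empty vector there, the widest gap between lines of any member.

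Other genes of the pathways were called in shares above and below those of all genes. Of 10 genes of SREBP processing and sterol-regulated degradation, none was called in H929, 1 rose and 3 fell in MM1S, 4 rose and 1 fell in OPM2 IKZF1 knockout, 2 rose in IKZF3 knockout and 1 rose under lenalidomide. That is 0% in H929, 40% in MM1S, 50% and 20% in OPM2 IKZF1 and IKZF3 knockouts and 10% under lenalidomide, against 10.5%, 28.2%, 36.3%, 36.8% and 10.3% of all genes. PGRMC1, a haem-binding membrane protein, was that last call: it stood at 433.6 and 444 CPM under lenalidomide against 280.8 and 272.9 CPM in untreated cells (0.66 ± 0.11, adjusted p = 0.00102 by edgeR). It fell in MM1S (-0.65) and rose in both OPM2 knockouts (0.56 and 0.41). Of 12 further isoprenoid and sterol synthesis genes, 2 fell and 1 rose in H929, 2 fell in MM1S, 3 and 4 fell in OPM2 IKZF1 and IKZF3 knockouts and 1 fell under lenalidomide, or 25%, 16.7%, 25%, 33.3% and 8.33% in that order of comparisons. PDSS1, which makes the ubiquinone side chain, was lower in MM1S (-0.83), both OPM2 knockouts (-0.58 and -0.54) and under lenalidomide (-0.45). In OPM2 it stood at 37.43 and 35.25 CPM after IKZF1 knockout and 36.07 and 38.78 CPM after IKZF3 knockout. Empty vector had 54.44 and 54.41 CPM and untreated cells 35.99 and 34.92 CPM, so the knockouts were lower than empty vector but close to untreated cells.

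Of 13 genes of sterol uptake, export and storage that could be tested, of 14 listed, none was called in H929, 2 rose in MM1S, 2 rose in OPM2 IKZF1 knockout, 2 rose and 2 fell in IKZF3 knockout and 1 rose under lenalidomide, or 0%, 15.4%, 15.4%, 30.8% and 7.69%. SCARB1, the lipoprotein receptor, stood at 35.99 and 39.82 CPM in MM1S knockout against 11.81 and 11.21 CPM in empty vector (1.72 ± 0.14, adjusted p = 9.26e-07 by edgeR). It rose under lenalidomide (0.55) and was lower in OPM2 IKZF3 knockout than in empty vector (-0.65). That knockout had 70.63 and 69.21 CPM, against 122.6 and 97.72 CPM in empty vector and 67.66 and 68.49 CPM in untreated OPM2 cells. Of 21 other fatty acid and lipid synthesis genes, 1 rose and 4 fell in H929, 2 rose and 2 fell in MM1S, 3 rose and 5 fell in OPM2 IKZF1 knockout, 1 rose and 8 fell in IKZF3 knockout and 1 moved each way under lenalidomide, or 23.8%, 19%, 38.1%, 42.9% and 9.52%. ME1, which supplies NADPH, stood at 2.809 and 2.777 CPM in H929 knockout against 6.795 and 7.955 CPM (-1.40 ± 0.17, adjusted p = 7.11e-05 by edgeR) and also fell in MM1S (-0.78). The elongase ELOVL7 rose in H929 (1.73) and in both OPM2 knockouts (1.08 and 0.96). It stood at 43.23 and 28.89 CPM in OPM2 IKZF1 knockout and 31.73 and 34.62 CPM in IKZF3 knockout. Empty vector had 11.31 and 22.36 CPM and untreated OPM2 cells 24.64 and 24.05 CPM.

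Summed markers of cell types differed between groups in several lists. The summed level of 8 myeloid markers was 248.5 and 180 CPM in H929 knockout against 38.34 and 40.43 CPM in empty vector, 84.68 and 77.82 against 36.08 and 36.41 CPM in MM1S, and 26.57 and 33.9 CPM under lenalidomide against 3.493 and 2.934 CPM. In OPM2 it was 13.28 and 32.13 CPM after IKZF1 knockout and 30.15 and 26.64 CPM after IKZF3 knockout, against 3.159 and 1.78 CPM. These sums were almost all CD68, a lysosomal protein that is not restricted to myeloid cells: FCGR3A was at 0 in all 18 libraries, and LYZ, CD14, CSF1R, MPO, ITGAM and S100A8 were at most 2.648 CPM in any. The T and NK cell markers summed to 30.43 and 34.32 CPM in H929 knockout against 44.85 and 42.51 CPM in empty vector, and to at most 4.753 CPM in any MM1S or OPM2 library. In H929 they were mainly CD3E, at 29.2 CPM on average in knockout and 39.7 CPM in empty vector, with NKG7 at most 3.779 CPM and CD3D at 0 in 17 of the 18 libraries.

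Epithelial and stromal markers summed to 331.2 and 274.1 CPM in H929 knockout against 198.2 and 201.3 CPM in empty vector, and to 57.65 and 61.68 CPM in MM1S knockout against 7.109 and 6.398 CPM. In OPM2 they were at 21.09 and 14.83 CPM after IKZF1 knockout and 8.876 and 9.654 CPM after IKZF3 knockout, against 8.67 and 10.59 CPM in empty vector. Under lenalidomide they were at 20.89 and 22.62 CPM against 12 and 14.67 CPM in untreated cells. Plasma cell markers summed to 12850 and 13150 CPM in MM1S knockout against 7957 and 7837 CPM in empty vector, and to 21260 and 20650 CPM in H929 knockout against 23190 and 23880 CPM. The part of these markers in the results above was not tested.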

How the data were processed

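The authors deposited unnormalized counts per Entrez gene for each library. The submitters' processing notes name GRCh38 (hg38) and list featureCounts, Subread and limma; versions and strand setting are not given in the sources used here. The authors also deposited log2 FPKM values for 16352 genes in 14 columns with control replicates merged, used only for levels between genes. Knockout count columns carry other numbers than the titles, so they were assigned to a group only. Genes without a symbol (385) were kept.

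Genes were filtered with filterByExpr by group and scaled by TMM in edgeR 4.0.16 (R 4.3.3). A robust quasi-likelihood fit with 1 coefficient per group had 9 residual degrees of freedom, and p-values were adjusted over 14571 genes. SE is the fold change over the square root of F. The smallest p of an exact permutation test of 2 libraries against 2 is 0.333. Alternatives were DESeq2 1.42.0 and limma-voom 3.58.1, other scalings and filters, the compared libraries alone, another control, a replicate block and 18 leave-one-out fits. The method was run on simulated counts that had a common spread for all genes and groups, with changes set only in H929 knockout. The wider spread of OPM2 empty vector was not simulated. Named were all 32 members and, of each other pathway list, up to 4 called genes with the smallest p in each of the 5 main comparisons. The members and lists were chosen with earlier results of these data known.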

Additional observations from a re-analysis of the deposited data

Results flagged for a closer look

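The IKZF1 knockout effect of 11 members differed between lines, by edgeR's quasi-likelihood test of the difference in log2 fold change. For H929 minus MM1S the differences were -2.11 for SQLE (squalene epoxidase), -0.92 for LSS (lanosterol synthase), -0.83 for SREBF2, -0.83 for DHCR7, -0.69 for MSMO1 and -0.64 for CYP51A1. All 6 have the lower value in H929, and 5 of them are steps from squalene to cholesterol. For H929 minus OPM2 they were -1.58 for FADS1, -0.81 for LSS, -0.80 for MSMO1, -0.74 for SQLE and -0.57 for SREBF2. For MM1S minus OPM2 they were 1.38 for SQLE, 1.07 for TM7SF2 and 0.56 for SCAP, and -1.40 for FADS1, -1.015 for INSIG1 and -0.71 for HMGCS1. Of all genes, 15.9%, 12.7% and 20.7% differed in these comparisons, in that order. Only SQLE and SREBF2 for H929 minus MM1S, FADS1 for H929 minus OPM2, and SQLE and FADS1 for MM1S minus OPM2 held without any single library. The FADS1 rise in OPM2 was not seen against untreated cells. The H929 minus OPM2 and MM1S minus OPM2 values share OPM2 empty vector replicate 1, the library that stood apart. The part of that library, and of the gap between MM1S knockout libraries a and b, in these differences was not tested beyond leaving each out.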

How the results depend on the processing

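Most values kept their side of the threshold under other scalings, filters and tests. Fitted alone, the compared libraries called 14 members in MM1S (7032 genes), 0 in OPM2 IKZF1 knockout (114), 0 in IKZF3 knockout (52), 20 under lenalidomide (5576) and 0 in empty vector against untreated cells (0). Of the effect differences they called 4080 genes for H929 minus MM1S, 1 member (118 genes) for H929 minus OPM2, 2 (714) for MM1S minus OPM2 and 0 genes for lenalidomide minus IKZF1 knockout. With untreated OPM2 control, IKZF1 knockout had 4 members (1131 genes) and IKZF3 knockout 5 (1205), and signs turned for SCAP (0.0019), ACAT2 (0.062), NSDHL (0.10) and FADS1 (-0.021) in IKZF1 knockout and for PMVK (0.30) and NSDHL (0.19) in IKZF3 knockout; PMVK there ran from -0.98 without empty vector replicate 2 to 0.030 without replicate 1. Without the low-count filter the members called were 11 in MM1S, 5 under lenalidomide, 2 between knockouts (810 genes), 10 for H929 minus OPM2 (3143) and 10 for lenalidomide minus IKZF1 knockout (2297). DESeq2 called 5 under lenalidomide, 1 between knockouts (579 genes) and 8 for lenalidomide minus IKZF1 knockout (1684). For MM1S and lenalidomide, counts over all genes without the filter or by DESeq2 are not given here. Those member counts thus cannot be compared with them. Except where fewer libraries were fitted, the cause was not tested. No paired analysis was possible for the knockouts because their columns carry other numbers than the titles. For the other pairs, the replicate 1 minus replicate 2 difference of each gene was correlated between the 2 groups, over all genes tested. The correlation was 0.01 (lenalidomide and untreated) and 0.20 (empty vector and untreated). With 2 pairs of libraries each, the libraries were not treated as paired. A replicate block gave 20 members (5490 genes) under lenalidomide and 5 (1707) in empty vector against untreated. Leaving out 1 library gave 2 to 16 members (683 to 3325 genes) in H929, 3 to 13 (2322 to 6316) in MM1S, 6 to 22 (3076 to 7982) in OPM2 IKZF1 knockout, 2 to 16 (2541 to 8016) in IKZF3 knockout, 1 to 10 (578 to 3262) under lenalidomide, 7 to 23 (2140 to 7847) in empty vector against untreated, 0 to 6 (119 to 1335) between knockouts and 12 to 21 (3737 to 7455) for the mean effect. It gave 2 to 8 (1436 to 4316) for H929 minus MM1S, 1 to 17 (479 to 6837) for H929 minus OPM2, 2 to 17 (1370 to 7010) for MM1S minus OPM2 and 0 to 22 (10 to 6582) for lenalidomide minus IKZF1 knockout. Where this left 1 sample in a group, it was assumed to vary like the other groups. No scaling moved the median of all genes by over 0.1. Limits set by depth were not compared with those set by the number of libraries.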
